A study of Drosophila melanogaster with 2 samples.

Results

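Chromosome 4 carried 300 of the 30000 candidates listed for the pooled replicates of a chromatin immunoprecipitation for the Drosophila transcription factor Tailup. That was 1% of the list (95% Wilson interval 0.894 to 1.12), which by its label holds peaks and background. The members were all pooled candidates placed on chromosome 4 of the dm6 assembly, and they were set beside 460 chromosome 4 peaks in the list of replicate 1, 103 in the list of replicate 2 and 7 among the 2241 peaks of the optimal list, which holds the peaks that passed the authors' irreproducible discovery rate (IDR) step. The material was whole embryos of mixed sex, 0 to 24 hours old, from 1 transgenic Drosophila melanogaster line that stably carries tup fused at its C-terminus to GFP, and the fusion protein was precipitated with an antibody to GFP. There was 1 group, with 2 biological replicates of that line, and no line without the fusion was analysed here. Each replicate list held 30000 candidates, so a list's length says nothing of its depth, and the read depth behind the peaks is unknown. Embryos of all these ages and all tissues were pooled, so the peaks cannot be assigned to a cell type.

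Tailup is the fly member of the Islet family of LIM-homeodomain proteins, known for its roles in motor neuron identity, in the heart and in the dorsal embryonic tissues. Homeodomains of this kind read short A+T-rich sites built on a TAAT core. Chromosome 4 is the small dot chromosome of the fly: its genes lie within chromatin that is largely bound by heterochromatin protein 1, many transposon remnants sit between and inside them, and several of its genes encode regulators of development, such as the Pax6 pair eyeless (ey) and twin of eyeless (toy). In the Ensembl annotation the chromosome was 1348131 bp long and held 118 genes, 80 of them protein-coding, without counting transposable elements. Annotated transposable elements covered 24.8% of it, against 5.74% of the 5 large arms together, called the other arms here, and its GC content was 35.2%, against 41.6% to 42.6% on the other arms.

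The sequences under the strongest summits show the DNA the peaks rest on. Each line gives the 101 bp centred on a pooled summit, from the plus strand of dm6 as in the RefSeq copy of the assembly, 5′ to 3′, and capitals mark any match, on either strand, to one of 10 motifs searched. The first 6 are peaks of the optimal list, the next 2 are the strongest chromosome 4 candidates outside it, and the last is the strongest candidate whose summit lies in an annotated transposable element. The optimal peak of Cals and the CG31999 promoter candidate lie on untranslated exons and are given by position and value only.
zfh2 upstream, chr4:497853-497953: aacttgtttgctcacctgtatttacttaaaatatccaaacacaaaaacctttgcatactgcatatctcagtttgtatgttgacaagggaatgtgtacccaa
gw promoter, chr4:660079-660179: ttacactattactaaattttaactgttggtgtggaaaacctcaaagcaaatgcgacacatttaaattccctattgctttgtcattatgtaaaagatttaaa
lncRNA:CR43437 upstream, chr4:424790-424890: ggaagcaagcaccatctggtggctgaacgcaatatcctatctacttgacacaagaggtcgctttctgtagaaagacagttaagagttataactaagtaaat
fuss upstream, chr4:982850-982950: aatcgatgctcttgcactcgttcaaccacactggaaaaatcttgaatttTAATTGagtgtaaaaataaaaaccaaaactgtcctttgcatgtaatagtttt
Sox102F promoter, chr4:807508-807608: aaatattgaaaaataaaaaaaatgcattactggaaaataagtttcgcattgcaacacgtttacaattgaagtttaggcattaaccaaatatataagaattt
CaMKII promoter, chr4:1053869-1053969: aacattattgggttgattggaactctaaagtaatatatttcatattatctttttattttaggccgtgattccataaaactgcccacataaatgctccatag
PlexA promoter, chr4:1027195-1027295: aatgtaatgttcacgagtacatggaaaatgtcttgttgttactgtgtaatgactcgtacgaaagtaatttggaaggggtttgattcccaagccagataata
CG31999 coding exon, chr4:219916-220016: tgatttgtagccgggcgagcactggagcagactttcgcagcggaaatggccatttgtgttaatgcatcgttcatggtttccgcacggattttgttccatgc
Cals intron INE-1, chr4:1121150-1121250: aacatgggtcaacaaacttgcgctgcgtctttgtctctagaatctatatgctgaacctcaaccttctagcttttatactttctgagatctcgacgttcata
Only the fuss window among these 9 held a match, a TAATTG, a homeodomain core with its flanking bases. The Sox102F window was the most A+T-rich, with 23.8% GC, and the CG31999 coding exon the least, with 50.5%.

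Of the 300 members, 7 were in the optimal list, or 2.33% (95% interval 1.13 to 4.74), where 7.47% of all 30000 candidates and 7.52% of those on the other arms were. The optimal list held exactly the 2241 strongest pooled candidates by the authors' signal, so membership and pooled signal are the same measure. The lowest signal in it was 68.7, and chromosome 4 had its last member inside at 74.7 and its first outside at 66.4. The deposited −log10 q was 1.59 at that last member inside, 1.27 at the first outside and 0.139 at the weakest member. Shares over all members below thus rest mostly on candidates outside the optimal list, at 1.27 or less, which can include background. Intervals here and below are Wilson intervals that cover counting error only, and peaks that lie close together are not independent. The signal is the authors' value per peak, and its scale differed between lists, so values are read within a list.

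The strongest member lay upstream of zfh2, a zinc-finger homeodomain transcription factor of the nervous system and the appendages, at chr4:497809-497986, 3907 bp from the nearest annotated transcription start site (TSS). It had a signal of 218 in the pooled list, 103 in replicate 1 and 118 in replicate 2, and it ranked 244 in the pooled list. Its interval was 178 bp long, whereas the median chromosome 4 interval was 384 bp. It stood first on chromosome 4 in replicate 2 and second in replicate 1.

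The next was in the 3′ UTR of Cals, which encodes calsyntenin, a cadherin-related membrane protein of synapses, at chr4:1113162-1113545. Its pooled signal was 182 and its replicate 1 signal 121, the highest of any chromosome 4 peak in that list. The replicate 2 summit nearest to this peak was 2499 bp away. The signal of the Cals peak in replicate 2 reads cannot be read from the peak lists.

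The promoter of gw, which encodes the GW182 protein of microRNA-mediated silencing, held the peak at chr4:659937-660320, 146 bp from a TSS. Its signal was 133 in the pooled list, 85.4 in replicate 1 and 47.5 in replicate 2. The same peak lay within the 5 kb before Slip1, a gene named for binding to a potassium channel. An intergenic peak 1227 bp from the start of lncRNA:CR43437, at chr4:424648-425031, had signals of 124 in the pooled list, 51.4 in replicate 1 and 65.9 in replicate 2. Both were found in both replicates, at ranks 693 and 855 for gw and 1830 and 432 for lncRNA:CR43437 in replicates 1 and 2.

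Upstream of fuss, a member of the Ski/Sno family of transcriptional regulators, the peak at chr4:982708-983091 lay 4411 bp from the TSS. Its signal was 101 in the pooled list and 41.0 in replicate 2, and the nearest replicate 1 summit, with a signal of 48.6, stood 108 bp away. A second pooled candidate with a signal of 31.2 overlapped it, and the replicate 1 summit was 92 bp from that one. A further replicate 2 summit, with a signal of 16.5, lay 6 bp from the second candidate and 86 bp from the replicate 1 summit. The second candidate was thus found in both replicates.

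The peak at the promoter of Sox102F, a SoxD-type transcription factor, at chr4:807366-807749, lay 211 bp from a TSS and had signals of 85.0 in the pooled list, 30.7 in replicate 1 and 49.9 in replicate 2. The peak at the promoter of CaMKII, the calcium/calmodulin-dependent kinase of synapses, at chr4:1053727-1054110, lay 216 bp from a TSS and had signals of 74.7 in the pooled list and 55.3 in replicate 1. The nearest replicate 2 summit to it was 17090 bp away. Of the 7 optimal peaks, 4 had a summit within 100 bp in both replicates, 2 (Cals and CaMKII) in replicate 1 alone, and 1 (fuss) in replicate 2 alone. The share found in both was 57.1%, against 90.5% of the optimal peaks on the other arms. By feature 3 were at promoters, 3 were intergenic and 1 was in a 3′ UTR, and 0 of the 132 intronic members were in the optimal list, where 6.20% of the intronic candidates on the other arms and 2.33% of all members were.

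**Figure D1:**
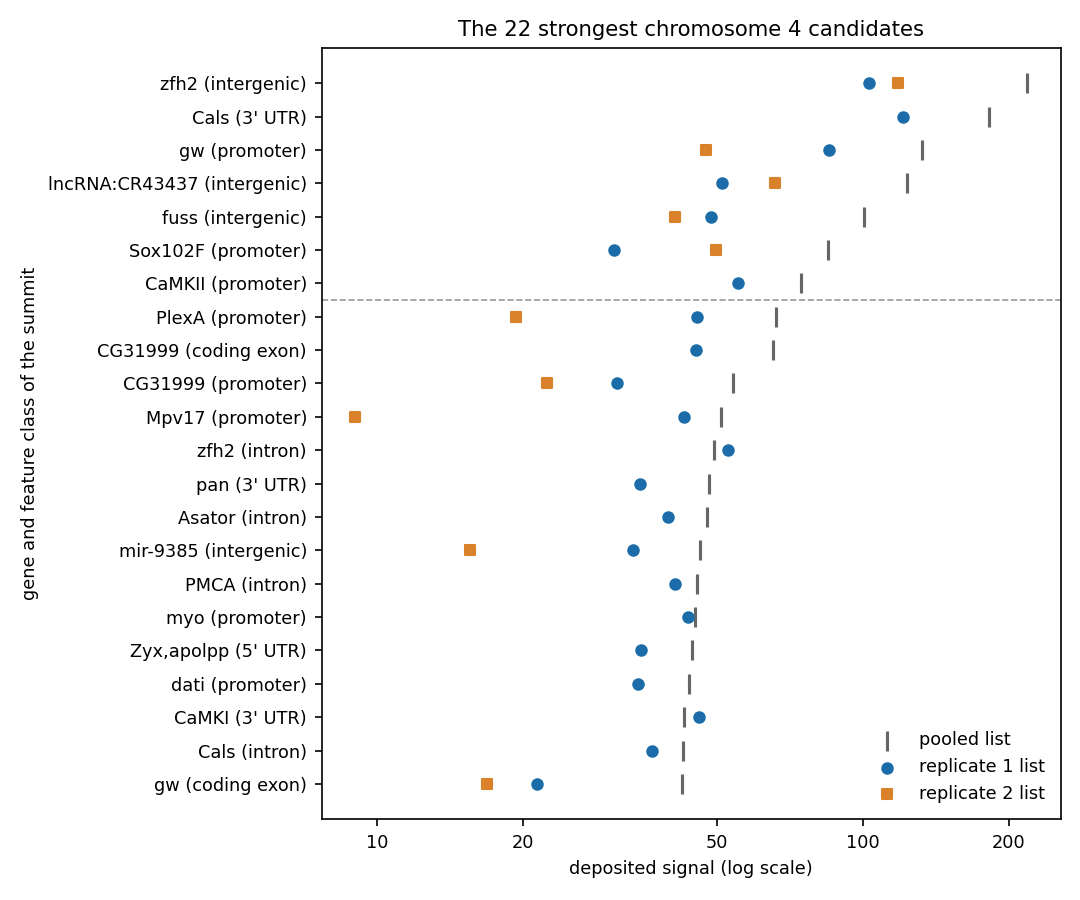
Deposited signal of the 22 strongest chromosome 4 candidates in the pooled list (bars), and of the nearest peak within 200 bp in the replicate 1 list (circles) and the replicate 2 list (squares), on a log axis. Rows are named by the gene that holds the summit or, outside genes, by the gene of the nearest TSS, with the feature class. The 7 rows above the dashed line are in the optimal list, and most rows below it have no replicate 2 square.

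Below the optimal list, the 3 strongest members were at the promoter of PlexA, a semaphorin receptor (chr4:1027053-1027436), in a coding exon of CG31999 (chr4:219774-220157) and at the promoter of the same gene (chr4:225851-226234). PlexA had signals of 66.4 in the pooled list, 45.5 in replicate 1 and 19.3 in replicate 2. The CG31999 exon had 65.4 in the pooled list and 45.4 in replicate 1, and its nearest replicate 2 summit was 2654 bp away. The CG31999 promoter had 54.1 in the pooled list, 22.4 in replicate 2 and 31.1 at a replicate 1 summit 103 bp away.

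The 12 members that followed had pooled signals of 51.0 down to 42.5. In order they lay at the promoter of Mpv17, in an intron of zfh2, in the 3′ UTR of pan (the fly TCF of Wnt signalling), in an intron of Asator (a tau-tubulin kinase family member), near mir-9385, in an intron of PMCA (the plasma membrane calcium pump) and at the promoter of myo, a TGF-beta family ligand. Then came the 5′ UTR of apolpp (the lipophorin precursor), a lncRNA:CR45125 promoter inside dati (a zinc-finger protein gene), the 3′ UTR of CaMKI, a Cals intron and a coding exon of gw. Among these 12, replicate 2 had a summit within 100 bp at 3: Mpv17 with a replicate 2 signal of 9.0, the mir-9385 site with 15.5 and the gw exon with 16.8. Replicate 1 had one at 11 of the 12, all but the Cals intron, whose nearest replicate 1 summit was 114 bp away.

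The replicate lists differed on chromosome 4 more than on any of the 5 large arms. Replicate 1 placed 460 of its 30000 candidates there, or 1.53%, and replicate 2 placed 103, or 0.343%. The ratio of replicate 1 to replicate 2 was 4.47 on chromosome 4, against 1.02 on 2L, 0.951 on 2R, 1.03 on 3L, 0.965 on 3R and 0.974 on X. Per Mb, chromosome 4 had 341 peaks in replicate 1, 76.4 in replicate 2 and 223 in the pooled list. The other arms had 175 to 249, 180 to 245 and 174 to 249 in the same lists, so chromosome 4 lay above them all in replicate 1, below them all in replicate 2 and among them in the pooled list.

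**Figure D2:**
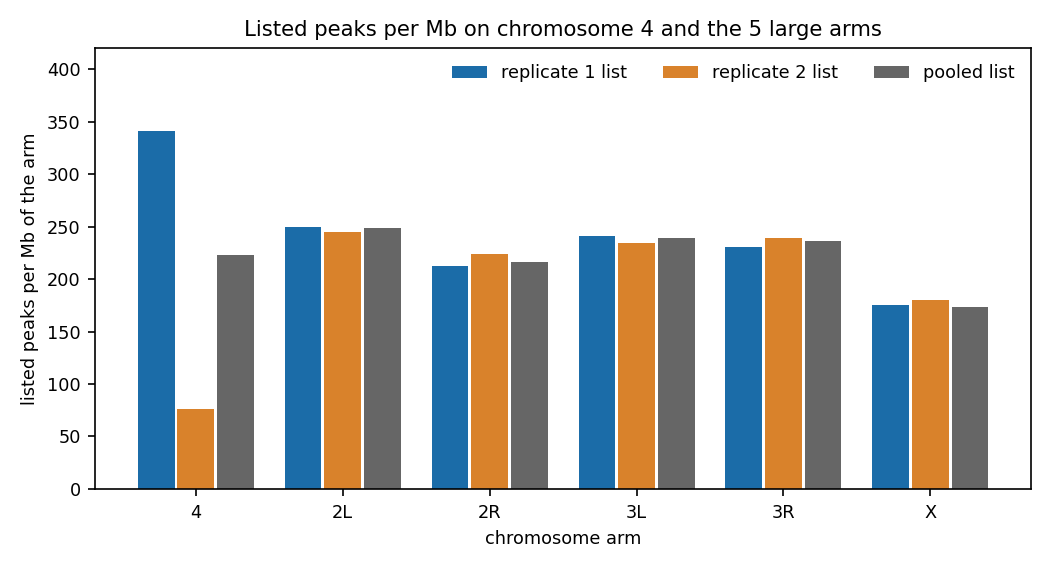
Listed peaks per Mb of each arm in the replicate 1, replicate 2 and pooled lists, with chromosome 4 at the left. On chromosome 4 the replicate 1 bar stands at 341 and the replicate 2 bar at 76.4 per Mb, while the 3 bars of each other arm are close to one another.

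The ratio was also taken over stretches of the other arms as long as chromosome 4. The 5 large arms were divided into 95 tiles of 1348131 bp, and the 84 with at least 100 pooled candidates had ratios of 0.695 to 1.30, with a median of 0.986. The most element-rich of these, 28.3% covered by annotated elements on 2R, held 279 replicate 1 and 234 replicate 2 candidates, a ratio of 1.19. The 11 tiles left out had 0 to 54 pooled candidates and, in the 10 with a replicate 2 peak, ratios of 0.877 to 8 on these small numbers. Among them the 2 richest in elements, at 44.0% and 44.9%, had 78 and 59, and 57 and 43 candidates in replicates 1 and 2. On the dm3 assembly chromosome 4 had 438 replicate 1 and 82 replicate 2 candidates, a ratio of 5.34. Among the 2241 strongest peaks of each list, 9 in replicate 1 and 5 in replicate 2 were on chromosome 4, a ratio of 1.8, and among the 10000 strongest the counts were 164 and 27, a ratio of 6.07. With 2 replicates, and no read totals or control list, the replicate that stands apart cannot be named, and what moves with the difference beyond the values below was not tested.

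Replicate 1 had more summits than replicate 2 in all 13 of the 100-kb bins that held any. The first bin had 25 in replicate 1 and 0 in replicate 2, and the 2 after it had 38 and 4, and 28 and 3. By ratio the replicates were closest in the bins from 700001 to 800000, with 25 and 12 (2.08), and from 800001 to 900000, with 36 and 17 (2.12). No list had a summit beyond 1300000, where the last bin covers the end of the chromosome. Consecutive pooled summits were a median of 2310 bp apart, and the largest gap was 41058 bp.

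Of the 300 members, 230 had a replicate 1 summit within 100 bp, or 76.7% (71.6 to 81.1), where 66.9% of all candidates and 66.8% of those on the other arms did. A replicate 2 summit lay within 100 bp of 40, or 13.3% (9.95 to 17.6), where 42.7% of all candidates and 43.0% of those on the other arms had one. Both replicates had a summit at 20 members, or 6.67% (4.36 to 10.1), where 24.5% of all candidates and 24.7% of those on the other arms had both. Replicate 1 alone was found at 210 members (70.0%, against 42.1% on the other arms), replicate 2 alone at 20 (6.67%, against 18.4%) and neither at 50 (16.7%, against 14.8%). Counting any overlap of the intervals in place of the distance, 262 members met a replicate 1 peak (87.3%, against 76.2% on the other arms) and 53 a replicate 2 peak (17.7%, against 58.5%).

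The members found in both replicates had the highest pooled signals of the 4 patterns, with a median of 35.5. The 210 found in replicate 1 alone had a median of 27.2, the 20 found in replicate 2 alone 24.8, and the 50 found in neither 23.1. The pooled list was derived from both replicates, so this order is in part built in. The patterns also differed in composition: the median GC of the 101-bp window was 34.7% for replicate 1 alone, 42.6% for replicate 2 alone, 37.6% for both and 37.1% for neither. Of the 50 found in neither, 15 had a replicate 1 summit between 100 and 200 bp away and 3 a replicate 2 summit.

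The lower recovery in replicate 2 was present in every band of pooled rank. Between pooled ranks 5001 and 10000, 56 of 64 members were found in replicate 1 (87.5%, against 83.4% on the other arms) and 6 in replicate 2 (9.38%, against 53.2%). Between ranks 10001 and 20000, 93 of 114 were found in replicate 1 (81.6%, against 67.2%) and 16 in replicate 2 (14.0%, against 36.3%). In the weakest 10000 candidates, 64 of 103 were found in replicate 1 (62.1%, against 44.5%), 9 in replicate 2 (8.74%, against 25.2%) and 0 in both (against 1.59%). Between ranks 2242 and 5000, 11 of 12 members were found in replicate 1 (91.7%, against 90.8%) and 4 in replicate 2 (33.3%, against 72.6%). In the optimal range, ranks 1 to 2241, 6 of 7 were found in replicate 1 (85.7%, 48.7 to 97.4, against 97.5% on the other arms). In that range 5 of 7 were found in replicate 2 (71.4%, 35.9 to 91.8, against 93.0%). There the shares of both replicates were below those of the other arms, on 7 members.

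**Figure D3:**
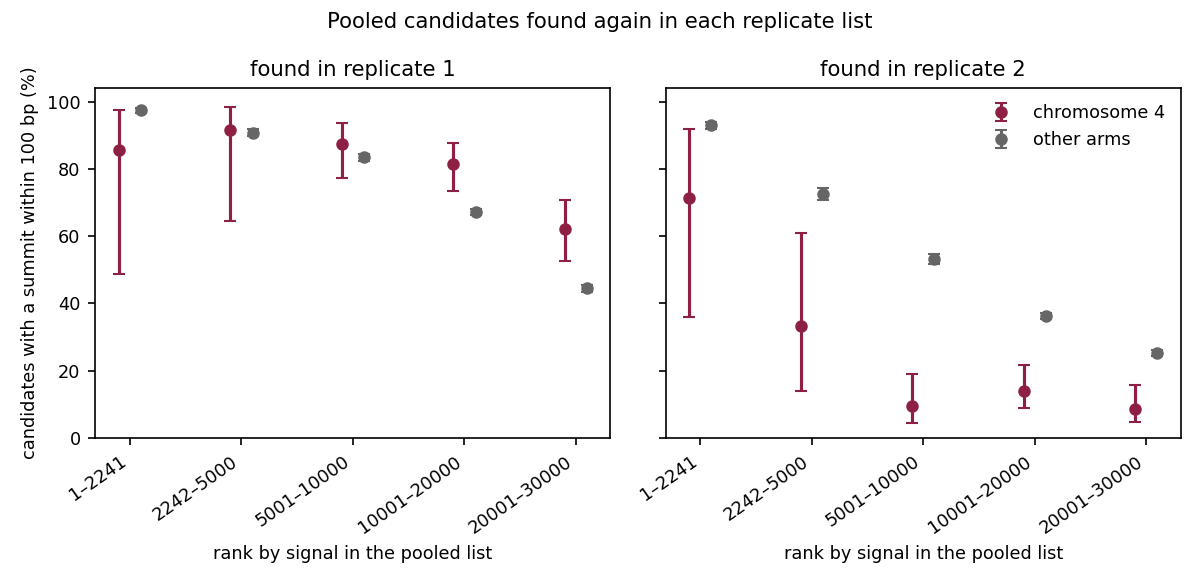
Share of pooled candidates with a summit within 100 bp in the replicate 1 list (left) and the replicate 2 list (right), by rank in the pooled list, for chromosome 4 and the other arms. Points are percentages and bars are 95% Wilson intervals. From rank 5001 down the chromosome 4 points lie above the others in replicate 1 and below them in replicate 2.

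Where both replicates had a summit, their signals ran together on chromosome 4 as elsewhere. Over the 20 such members Spearman's rho between the 2 signals was 0.662, and over 7322 candidates of the other arms it was 0.610. These are descriptions over peaks of the same libraries. The 20 included the peaks of zfh2, gw, lncRNA:CR43437 and Sox102F, 2 further sites in introns of zfh2, 2 coding exons of gw, and single sites in Hcf, unc-13 and sv, the fly Pax2/5/8 homologue. Their replicate 2 signals were 7.98 to 118, with a median of 13.2, and their replicate 1 signals were 17.2 to 103, with a median of 24.0. The other way round, 19 of the 460 replicate 1 peaks had a replicate 2 summit within 100 bp (4.13%, against 24.2% on the other arms), and 19 of the 103 replicate 2 peaks had a replicate 1 summit (18.4%, against 23.9%).

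The pooled signals of the members had a median close to that of the other arms and a shorter upper range. Their median was 26.7 (quartiles 22.8 and 33.2, highest 218), against 27.3 (22.8 and 36.4, highest 1283) on the other arms, and the median percentile within the whole list was 47.5. Within the replicate lists the chromosome 4 medians stood at percentile 53.3 in replicate 1 and 44.0 in replicate 2. Among the replicate 1 peaks with no pooled candidate nearby, one in an intron of Taf3, a subunit gene of the general factor TFIID, had a replicate 1 signal of 48.3. In replicate 2 the chromosome 4 peaks fell off sharply after the fifth: zfh2 at 118, lncRNA:CR43437 at 65.9, Sox102F at 49.9, gw at 47.5 and fuss at 41.0 were followed by the CG31999 promoter at 22.4.

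Base composition moved with the replicate difference. The 101-bp windows around the members had a median GC of 35.6% (quartiles 30.7 and 42.6), close to the 35.2% of the chromosome itself, against 42.6% on the other arms. In replicate 1 the chromosome 4 windows had a median of 34.7%, against 40.6% on the other arms, and in replicate 2 they had 40.6%, against 46.5%. Windows of replicate 1 were the more A+T-rich both on chromosome 4 and on the other arms.

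The ratio of replicate 1 to replicate 2 peaks was higher on chromosome 4 than on the other arms in each band of GC. On the other arms it fell from band to band, and on chromosome 4 it did so except between the 40 to 45% and the 45 to 50% band. Below 30% GC chromosome 4 had 151 replicate 1 and 6 replicate 2 peaks, a ratio of 25.2, against 2.46 on the other arms. From 30 to 35% the counts were 105 and 16, a ratio of 6.56 against 1.53, and from 35 to 40% they were 86 and 23, a ratio of 3.74 against 1.19. From 40 to 45% the counts were 56 and 27 (2.07 against 0.894), and from 45 to 50% they were 41 and 12 (3.42 against 0.763). At 50% or more they were 21 and 19, a ratio of 1.11, against 0.643. The ratio thus varied with composition on all arms, and within a band chromosome 4 had the higher value. Any part that composition had in the chromosome 4 counts was not tested further.

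**Figure D4:**
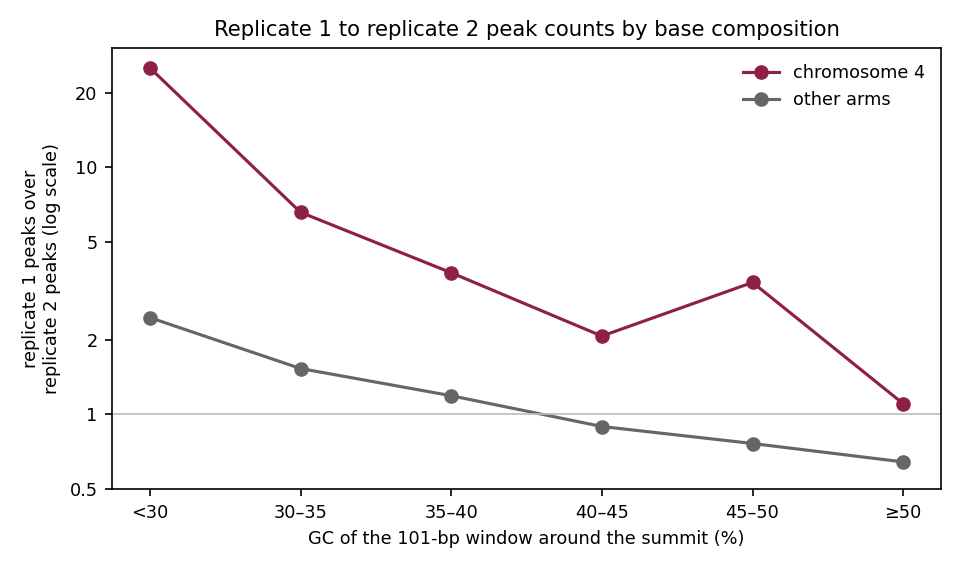
Number of replicate 1 peaks over number of replicate 2 peaks in 6 bands of GC content of the 101-bp summit window, for chromosome 4 and for the other arms, with a log axis. The grey line marks equal counts. Chromosome 4 runs from 25.2 in the lowest band to 1.11 in the highest, and the other arms from 2.46 to 0.643.

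Transposable elements held 63 of the 300 summits, or 21.0% (16.8 to 26.0), against 151 of 29699 on the other arms (0.508%). Per Mb of element sequence that was 189 summits on chromosome 4, against 19.8 on the other arms. Outside elements the densities were 234 and 237 per Mb. INE-1, a short non-autonomous element that is abundant in this chromosome, accounted for 50 of the 63: its 344 copies covered 7.22% of chromosome 4 and held 514 summits per Mb of the family, against 202 on the other arms. The 1360 element, which has been studied as a nucleator of silencing, held 7. The telomeric elements HeT-A and TART-A, which cover 3.28% and 1.94% of the chromosome, held 0 summits in the pooled list and in both replicate lists.

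None of the 7 optimal peaks had its summit in an element. The strongest that did was the Cals intron candidate in an INE-1 copy, with a signal of 42.6 and rank 5270, whose window is printed above. Of the 63, 44 were found in replicate 1 (69.8%), 4 in replicate 2 (6.35%) and 0 in both. For chromosome 4 summits outside elements the shares were 78.5%, 15.2% and 8.44%, and for element summits on the other arms they were 74.2%, 25.2% and 13.9%. The ratio of replicate 1 to replicate 2 was 5.47 for summits inside elements (82 and 15) and 4.30 outside them (378 and 88), against 1.87 and 0.985 on the other arms. The ratio was thus nearly as large when element summits were left out. Whether reads were mapped uniquely is not given in the sources used here, and copies of 1 family are alike in sequence, so the place of a peak within an element is uncertain.

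The members lay a median of 3278.5 bp from a TSS, against 1738 bp on the other arms. By annotation 132 members were in introns (44.0%, against 38.2% on the other arms), 56 were intergenic (18.7%, against 18.9%) and 48 were in coding exons (16.0%, against 13.8%). Introns made up 42.6% of the sequence of chromosome 4 and 39.4% of that of the other arms, intergenic sequence 18.2% and 27.3%, and coding exons 18.8% and 13.7%. Promoters, within 500 bp of a TSS, held 40 (13.3%, 9.95 to 17.6), against 24.1% on the other arms, and such sequence made up 10.7% of chromosome 4 and 13.6% of the other arms. The 3′ UTRs held 20 (6.67%, 4.36 to 10.1), against 3.22%, with 7.19% and 4.40% of the sequence. The remaining members were 3 in 5′ UTRs and 1 in a non-coding exon.

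The replicate ratio differed by feature as well. In 3′ UTRs chromosome 4 had 41 replicate 1 summits and 1 replicate 2 summit, against 1299 and 604 on the other arms, a ratio of 2.15. Of the 20 members in 3′ UTRs, 18 were found in replicate 1 (90%, against 71.2% of 3′ UTR candidates on the other arms) and 0 in replicate 2 (against 25.2%). Those found in replicate 1 included the members of Cals, pan, CaMKI, RhoGAP102A and toy. The 0 of 20 in replicate 2 allows a share of up to 15%, where 3 counts, not a Wilson interval, set the limit. In introns the counts were 213 and 31, a ratio of 6.87 against 1.07 on the other arms. Promoters had 59 and 20 (2.95 against 0.926), and coding exons had 65 and 29 (2.24 against 0.708), the lowest ratio of the 5 classes with over 10 members.

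Gene regions, from 5 kb before the start of a gene to its end, held at least 1 member for 94 of the 118 genes (79.7%) and for 71 of the 80 coding genes. Replicate 1 had a summit in 111 of the 118 regions and replicate 2 in 51. The same shares were not taken over genes of the other arms, so whether they are particular to chromosome 4 was not tested. Neighbouring regions overlap on this gene-dense chromosome, so 1 summit can count for more than 1 gene. The most members lay in the region of zfh2, with 20, where replicate 1 had 18 summits and replicate 2 had 11. Next were unc-13, whose protein primes synaptic vesicles, with 13, then PMCA, toy and bt with 11 each, bt being the gene of the muscle protein projectin. The regions of gw, CaMKII, Asator, ey and CG32017 had 10 each. These are mostly long genes, with regions of 16568 bp (gw) to 57075 bp (bt).

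The 2 replicates filled the gene regions unevenly. In PMCA replicate 1 had 20 summits and replicate 2 had 0, in pan the counts were 23 and 0, in Asator 14 and 0, and in CaMKII 11 and 0. In bt they were 13 and 7, in ey 13 and 5, in unc-13 16 and 4, in toy 10 and 3, in gw 12 and 4, and in CG32017 12 and 1. Replicate 1 had more summits than replicate 2 in 102 regions, fewer in 10 and as many in 6. pan was chosen for this comparison after its counts were seen.

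**Figure D5:**
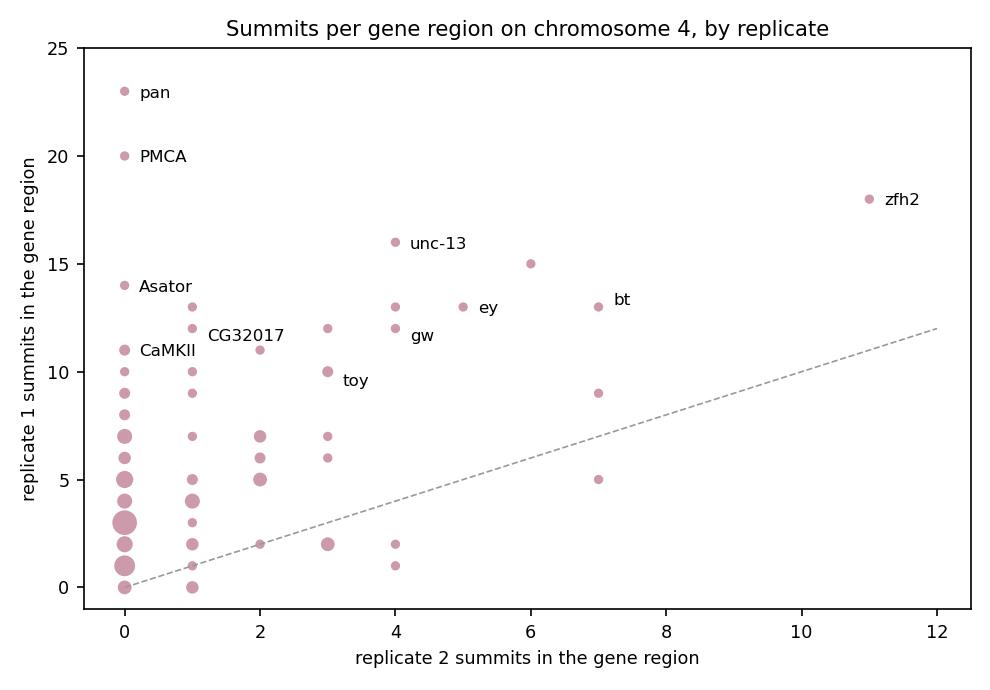
Summits per gene region in the replicate 1 list against the replicate 2 list for the 118 genes of chromosome 4, with larger points where several genes share a pair of counts. The dashed line marks equal counts, and the 10 regions with most members and pan are named. Most points lie above the line, pan at 23 and 0, PMCA at 20 and 0 and zfh2 at 18 and 11.

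Of all 118 genes 9 had an optimal peak in their region, and of the 80 coding genes 7 did, the shares beside which the lists below stand. Among the 17 listed transcription factor and cofactor genes, 16 had a member in their region and 2 (zfh2 and Sox102F) had an optimal peak. Replicate 1 had summits in all 17 and replicate 2 in 12. Summed over the list they had 159 and 47 summits. The strongest pooled signals after zfh2 and Sox102F were in the regions of pan (48.2), ey (45.2, the promoter of the neighbouring myo), dati (43.9) and Gyf (41.4). Pur-alpha, a nucleic-acid-binding protein gene, was without one.

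Of the 16 listed signalling genes, mostly of ligands, receptors and kinases, 15 had a member. The list also held others, such as Slip1, Crk and Zyx. Only Slip1 had an optimal peak, the one at the gw promoter. Replicate 1 had summits in 16 and replicate 2 in 6, or 96 and 16 summits. PlexA (66.4), Asator (47.7), myo (45.2), the zyxin gene Zyx (44.4) and the lipid kinase gene PIP4K followed, and Crk, an adaptor protein gene, was without one. The 11 of 12 listed neuronal and synaptic genes that were matched to the annotation all had a member, and 3 (zfh2, Cals and CaMKII) had an optimal peak. Replicate 1 had summits in all 11 and replicate 2 in 5, or 121 and 21 summits. PMCA (45.6), the glutamate receptor gene Ekar (42.5, the gw coding exon peak) and unc-13 (42.0) came next in signal.

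The last list held 13 genes set down as housekeeping, a loose label for apolpp, yellow-h and RhoGAP102A. Of the 13, 11 were matched and 8 had a member, with the optimal peak of gw. Replicate 1 had summits in 11 and replicate 2 in 4, or 57 and 9 summits. ATPsynbeta (66.4, the PlexA promoter peak), yellow-h (54.1, the CG31999 promoter peak), apolpp (44.4), eIF4G1 (41.7) and RhoGAP102A (39.8) followed. The proteasome shuttle gene Rad23, the ribosomal protein gene RpS3A and the zinc transporter gene Zip102B were without one. With a member in 71 of the 80 coding genes, the lists' counts stand beside a high background. The 24 genes without a member had shorter regions, with a median of 6817.5 bp, against 12342 bp for those with one.

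The 10 motifs were searched on both strands of the 101-bp windows, and each share below stands beside that of the candidates on the other arms. The homeodomain cores TAATTA and TAATTG were in 25 and 30 of the 300 windows (8.33% and 10%, against 7.25% and 8.86%). TAATGG was in 8 (2.67%, 1.36 to 5.17, against 5.18%). CGATA, which TATCGATA contains, was in 51 (17.0%, 13.2 to 21.7, against 12.1%), and CAGGTA, the core of the Zelda site, in 14 (4.67%, 2.80 to 7.68, against 2.30%). The GATA-type GATAAG was in 10 (3.33%, against 4.77%), the GAGA-type GAGAG in 33 (11.0%, against 11.7%) and TATCGATA in 2 (0.667%, against 0.566%). GGTCACACT and TGACGTCA were in 0 of 300 (0 to 1.26%), where the other arms had 0.279% and 0.168%. Among the 7 optimal windows TAATTA was in 1, that of Cals, TAATTG in 1, that of fuss, and the other 8 motifs in none. In the replicate 1 list CGATA was in 60 of 460 windows (10.3 to 16.4%, against 11.8%). CAGGTA was in 16 of them (2.15 to 5.57%, against 2.30%). In replicate 2 CGATA was in 11 of 103 (6.07 to 18.1%, against 12.2%) and CAGGTA in 3 (0.995 to 8.22%, against 2.39%). Each of these replicate intervals of CGATA and CAGGTA holds the share of the other arms. TAATGG was in 14 of the 460 replicate 1 windows (1.82 to 5.04%, against 5.28%). In replicate 2 it was in 3 of 103 (0.995 to 8.22%, against 4.56%). The pooled and replicate 1 intervals of TAATGG thus lay below the share of the other arms, and the replicate 2 interval held it. Motif shares were not adjusted for GC, which was lower in the chromosome 4 windows. The matches describe the letters of the windows and do not mark binding sites.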

How the data were processed

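Chromatin from 2 biological replicates of 1 group was immunoprecipitated with anti-GFP, per the labels, after shearing to fragments of 200 to 800 bp. The authors deposited peak lists per replicate, for the pooled replicates and for the optimal set on dm6 and dm3, called with a control that was not analysed here. The sources used here do not name the caller, the aligner, their versions or the IDR cutoff, and read totals are unknown. The deposited signal per peak was used as given and compared only within a list. The deposited −log10 q served as another ranking and is given for a few members, and no cutoff was set on it here. The deposited lists have no header, so columns were read in the usual narrowPeak order.

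Intervals were written 1-based. A candidate was called found where a replicate summit lay within 100 bp. Summits were annotated with Ensembl release 115 (BDGP6.54), without 5889 transposable elements among its genes, by the first class that applied, with promoters before exons, exons before introns and intergenic last. A gene region began 5 kb before the gene. Sequence came from the RefSeq copy of dm6, and no candidate lay past its chromosome ends. Shares have 95% Wilson intervals. No test between groups was possible with 1 group, and none was made over peaks, which are not replicates. Named genes were those at the optimal peaks, at the 15 strongest other candidates and at the 3 just below the optimal list, the 10 with most summits, and per list up to 6 with the highest signal and up to 3 without a summit. Hcf, sv and Taf3 were named outside this rule. The members and gene lists were chosen with earlier results of these data known. The closing section gives the effect of 46 alternatives. Summit matching and annotation were tested on simulated data. Python 3.11.15, numpy 2.4.6, pandas 2.3.3, scipy 1.17.1 and matplotlib 3.10.9 were used.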

Additional observations from a re-analysis of the deposited data

How the results depend on the processing

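Of 46 alternatives, 18 moved their value beyond a limit. For shares the limit was the counting interval, for the correlation an interval from its number of peaks, and for the replicate ratio a fixed fold change. For density, signal percentile and GC it was the spread between the replicates. For those 3 the single-replicate values set that spread, so they say nothing of stability. The share of chromosome 4 candidates in the optimal range was 2.33% and ran from 1.96 to 4.85% in the replicate lists taken alone. The share found in both replicates was 6.67%, 12% by any overlap and 13.5% above the median signal. Promoters held 13.3%, 7.33% at 250 bp, 23% at 1000 bp, 8.67% with coding TSS alone and 12.8 to 19.4% in single replicates. Elements held 21.0%, 34.3% by whole interval, 27% with 50 bp on each side of the summit and 14.6 to 17.8% in single replicates. Genes with a summit were 79.7%, 57.6% with no upstream part, 49.2% within 1 kb of a TSS and 43.2 to 94.1% in single replicates. Median GC was 35.6% and ran from 34.7 to 40.6% in single replicates, the density was 223 per Mb, with 76.4 to 341, and the median signal percentile was 47.5, with 44.0 to 53.3. TAATTA was in 8.33% of windows, 2.67% with 25 bp and 15% with 100 bp on each side. The ratio of replicate 1 to replicate 2, whose alternatives were chosen after seeing the data, was 4.47, and 1.8 among the strongest 2241 of each list, where it rests on 9 and 5 peaks. The causes were not tested. No paired analysis was possible because there was 1 group. Read depth is unknown, so it is not known how far it limits the weaker candidates.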
